A study of Mus musculus with 12 samples.

Results

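The genes of MHC class I antigen presentation were followed through every cell type of the spleen in lupus-prone SLE.yaa mice and in WT mice. The set had 10 members out of 16094 genes with a name in the expression table: H2-K1, H2-D1, H2-T23, B2m, Tap1, Tap2, Tapbp, Psmb8, Psmb9 and Nlrc5. They were taken by name for their place in the pathway, all 10 were in the table, and all 10 passed the filter on low values in each of the 9 cell types tested and in all cells together. The SLE.yaa group was 2 male mice of strain B6.Sle1yaa. Mice of this strain have Sle1, a lupus interval from chromosome 1, together with Yaa, a piece of the X chromosome with Tlr7 moved to the Y. The WT group was 2 male mice of strain C57BL/6. Leukocytes of the spleen, enriched by their surface marker CD45, were captured in 10x Genomics droplets, with 1 expression library a mouse. The deposited age was 14.9 in the SLE.yaa mice and 14.4 in the WT mice, with no unit given, so age differs with the group and cannot be told apart from it. The group labels stand under a tag that speaks of chimeras, and no source used here says if the mice were chimeras.

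MHC class I molecules carry peptides from inside the cell to its surface, where CD8 T cells read them and NK cells read their absence. The peptides are cut by the proteasome, pumped into the endoplasmic reticulum by the TAP transporter, and loaded onto a heavy chain paired with beta-2 microglobulin. Interferons raise many genes of this pathway, and their signalling is a known feature of lupus.

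H2-K1 and H2-D1 encode the classical class I heavy chains of the C57BL/6 mouse. H2-T23 encodes Qa-1, a class I-like chain that presents leader peptides of other class I molecules to the NK receptor CD94-NKG2A. B2m encodes beta-2 microglobulin, the light chain shared by all of them. Psmb8 and Psmb9 encode catalytic subunits of the immunoproteasome, Tap1 and Tap2 the subunits of the peptide transporter, and Tapbp tapasin, which holds the empty heavy chain at the transporter. Nlrc5 encodes a transactivator of class I genes that acts through the SXY module of their promoters.

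In GRCm38, 8 of the 10 members lie on chromosome 17, in or next to the MHC. Going up the chromosome they are Tapbp (chr17:33919478-33929290), H2-K1 (chr17:33996012-34000619), Psmb9 (chr17:34182030-34187330), Tap1 (chr17:34187556-34197225), Psmb8 (chr17:34198195-34201454), Tap2 (chr17:34204479-34216321), H2-D1 (chr17:35263094-35267497) and H2-T23 (chr17:36029977-36032701). B2m is at chr2:122147687-122153082 and Nlrc5 at chr8:94434335-94527272. Psmb9 and Tap1 are read in opposite directions, and 225 bases lie between their starts, so that their promoter windows overlap.

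Promoter windows are shown because the members are described below as a group that moved in the same direction in several cell types. RefSeq promoters of GRCm38.p6 were found for 8 of the 10 members (all but Tap2 and Nlrc5), and the 250 bases before each start were searched on both strands. The letters searched were GAAA, any 2 bases and GAAA, the core of the interferon-stimulated response element, TTCNNNGAA, the core of the gamma-activated site, TGACG, the core of the X2 box, and CCAAT, the core of the Y box. Of 32851 windows of the same length in RefSeq, 2.98% held that core, 7.02% TTCNNNGAA, 17.8% TGACG and 33.8% CCAAT. The promoters used gave H2-K1 2 starts, and the window of the more upstream of these is shown. This window lies inside the span of H2-K1 given above, which reaches 34000619. Distances in H2-K1 are therefore counted from a start within that span. Each sequence runs 5′ to 3′ on the strand of its gene and ends at the base before the start. Capitals mark the matches, and ATTGG, as well as TTTCTCTTTC, is a match on the other strand.
H2-K1, chr17:34000348-34000597, minus strand: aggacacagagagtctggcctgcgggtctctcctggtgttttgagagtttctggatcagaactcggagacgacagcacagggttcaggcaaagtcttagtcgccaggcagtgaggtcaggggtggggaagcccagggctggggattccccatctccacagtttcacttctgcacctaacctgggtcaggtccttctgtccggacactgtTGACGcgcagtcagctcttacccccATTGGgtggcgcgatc
H2-D1, chr17:35262844-35263093, plus strand: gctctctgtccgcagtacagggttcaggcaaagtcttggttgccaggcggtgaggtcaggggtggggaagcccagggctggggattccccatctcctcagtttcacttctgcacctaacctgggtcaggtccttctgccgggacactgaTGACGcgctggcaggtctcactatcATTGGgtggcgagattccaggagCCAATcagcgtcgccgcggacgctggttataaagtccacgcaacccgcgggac
H2-T23, chr17:36032702-36032951, minus strand: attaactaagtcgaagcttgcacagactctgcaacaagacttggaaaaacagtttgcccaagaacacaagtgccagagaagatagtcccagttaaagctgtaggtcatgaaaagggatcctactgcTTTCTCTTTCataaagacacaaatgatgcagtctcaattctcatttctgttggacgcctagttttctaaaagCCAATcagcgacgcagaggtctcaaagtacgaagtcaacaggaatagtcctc
B2m, chr2:122147437-122147686, plus strand: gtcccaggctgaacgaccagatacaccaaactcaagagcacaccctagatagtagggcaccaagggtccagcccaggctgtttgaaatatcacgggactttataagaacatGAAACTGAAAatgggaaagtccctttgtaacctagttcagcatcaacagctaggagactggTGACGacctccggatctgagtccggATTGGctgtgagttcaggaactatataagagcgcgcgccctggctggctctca
Tap1, chr17:34187306-34187555, plus strand: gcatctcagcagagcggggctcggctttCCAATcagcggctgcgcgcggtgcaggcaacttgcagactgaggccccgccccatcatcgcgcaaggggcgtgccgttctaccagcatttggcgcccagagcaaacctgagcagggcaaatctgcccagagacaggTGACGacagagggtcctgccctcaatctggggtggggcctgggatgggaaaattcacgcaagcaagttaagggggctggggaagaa
Psmb8, chr17:34197945-34198194, plus strand: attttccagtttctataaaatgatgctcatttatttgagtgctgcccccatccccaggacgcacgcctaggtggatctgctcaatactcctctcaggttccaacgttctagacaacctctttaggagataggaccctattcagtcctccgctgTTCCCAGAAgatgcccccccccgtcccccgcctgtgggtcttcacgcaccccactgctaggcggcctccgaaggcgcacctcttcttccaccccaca

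TGACG stood a short way upstream of ATTGG in H2-K1, H2-D1 and B2m. In H2-K1 it lay 41 to 37 bases before the start with ATTGG at 16 to 12, in H2-D1 at 101 to 97 with ATTGG at 76 to 72, and in B2m at 78 to 74 with ATTGG at 53 to 49. The Tap1 window held TGACG at 86 to 82 bases and CCAAT at 222 to 218 bases before its start, and the window of Psmb9 holds the same pair read from the other strand, at 144 to 140 and 8 to 4 bases before the Psmb9 start. The response element core was found in B2m, as GAAACTGAAA 139 to 130 bases before the start, and on the other strand in H2-T23. TTCNNNGAA was found in Psmb8, as TTCCCAGAA 97 to 89 bases before the start, and Tapbp held ATTGG alone, at 248 to 244 and at 165 to 161 bases. These are matches of letters and not sites shown to be used.

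Levels are means over the cells of a mouse and type of the authors' depth-adjusted values, scaled to a sum of 1000000 (vpm). Within a comparison they were further scaled between mice with TMM factors. Changes are log2 ratios of SLE.yaa over WT on vpm plus 10, tested with limma, and a change was called at an adjusted p under 0.05 over all genes tested. The mouse was the replicate, so each SD is over n = 2, and with 2 mice against 2 an exact permutation test of a single value could not pass 0.05. Nothing in the labels says how the mice of a group were related. The table held 22285 cells, between 4961 and 6130 a mouse, and the median cell had 4695 and 4050 UMIs in SLE.yaa mice and 3467 and 3670 in WT mice. A total of 254 cell barcodes occurred in more than 1 library, in 510 cells.

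Of the 12 types the authors annotated, 9 had at least 20 cells in each mouse. These were B cells, the B cell types B-ISG and B-early, CD4 and CD8 T cells, NK cells, DC, Mac and PMN (neutrophils). The marker lists of B cells, CD4 T cells, CD8 T cells, NK cells and neutrophils each summed highest in a type of that name. The myeloid names were less plain. Cells annotated Mac had a summed level of 9198 to 20863 vpm for 5 monocyte markers and of 13.9 to 35.3 vpm for 5 macrophage markers, and are called by their annotation. Cells annotated DC held the macrophage markers at 12759 and 9871 vpm in SLE.yaa mice against 545 and 1121 vpm in WT mice, and 80.4% and 75.5% of them had a C1q value in SLE.yaa mice against 5.19% and 12.2% in WT mice. The 5 DC markers summed to 368 and 549 vpm in DC of SLE.yaa mice against 719 and 740.1 vpm in those of WT mice.

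The members were expressed in every type, and their order over types differed from gene to gene. Levels in this and the next paragraph are vpm scaled to the sum alone, and the types were clustered on these cells, so they are a description. H2-K1 was lowest in PMN in both groups, at a mean of 1529 ± 239 vpm in SLE.yaa mice and 1243 ± 178 vpm in WT mice. It was highest in CD4 T cells of SLE.yaa mice (4963 ± 361 vpm), where the range met that of NK cells, and in NK cells of WT mice (3984 ± 277 vpm). H2-D1, its partner heavy chain, was instead among the 3 highest types in PMN, after NK cells and Mac in both groups. The log2 ratio of H2-D1 to H2-K1 averaged 1.35 and 1.47 in PMN of SLE.yaa and WT mice, 0.63 and 0.81 in Mac, and −0.54 and −0.48 in CD4 T cells. This ratio was above 0 in Mac and PMN and below 0 in CD4 and CD8 T cells in all 4 mice. It is read between types and not as an amount per gene, and reads of near-identical class I genes can be counted for one or the other.

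B2m was highest in Mac in both groups, at 3552 ± 225 vpm in SLE.yaa mice and 2872 ± 561 vpm in WT mice. It was lowest in B cells of SLE.yaa mice (1721 ± 307 vpm) and in B-early cells of WT mice (1170.4 ± 194 vpm). Nlrc5 had the widest span of the 10 members over types. In SLE.yaa mice it averaged 127.8 ± 3.52 vpm in B-ISG cells and 24.4 ± 3.24 vpm in Mac, a 5.23-fold span, and in WT mice 87.6 ± 11.4 vpm in CD8 T cells and 17.5 ± 18.3 vpm in PMN. H2-T23 and Tap1 were highest in B-ISG cells in both groups, and Tap2 was highest in CD4 T cells in both. By the mean of 2 mice, Mac came last of the 9 types in SLE.yaa mice for H2-T23, Tap1, Tap2, Psmb9 and Nlrc5. By that mean it came last for none of the 10 in WT mice. In WT 2 alone, Mac was the lowest type for Tap2, at 74.9 vpm against 187 vpm in Mac of WT 1. Neighbours in these orders mostly overlapped between mice: Nlrc5 had 5 of 8 neighbouring pairs apart in SLE.yaa mice and 0 of 8 in WT mice, and Tap1 had 4 and 1.

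**Figure D1:**
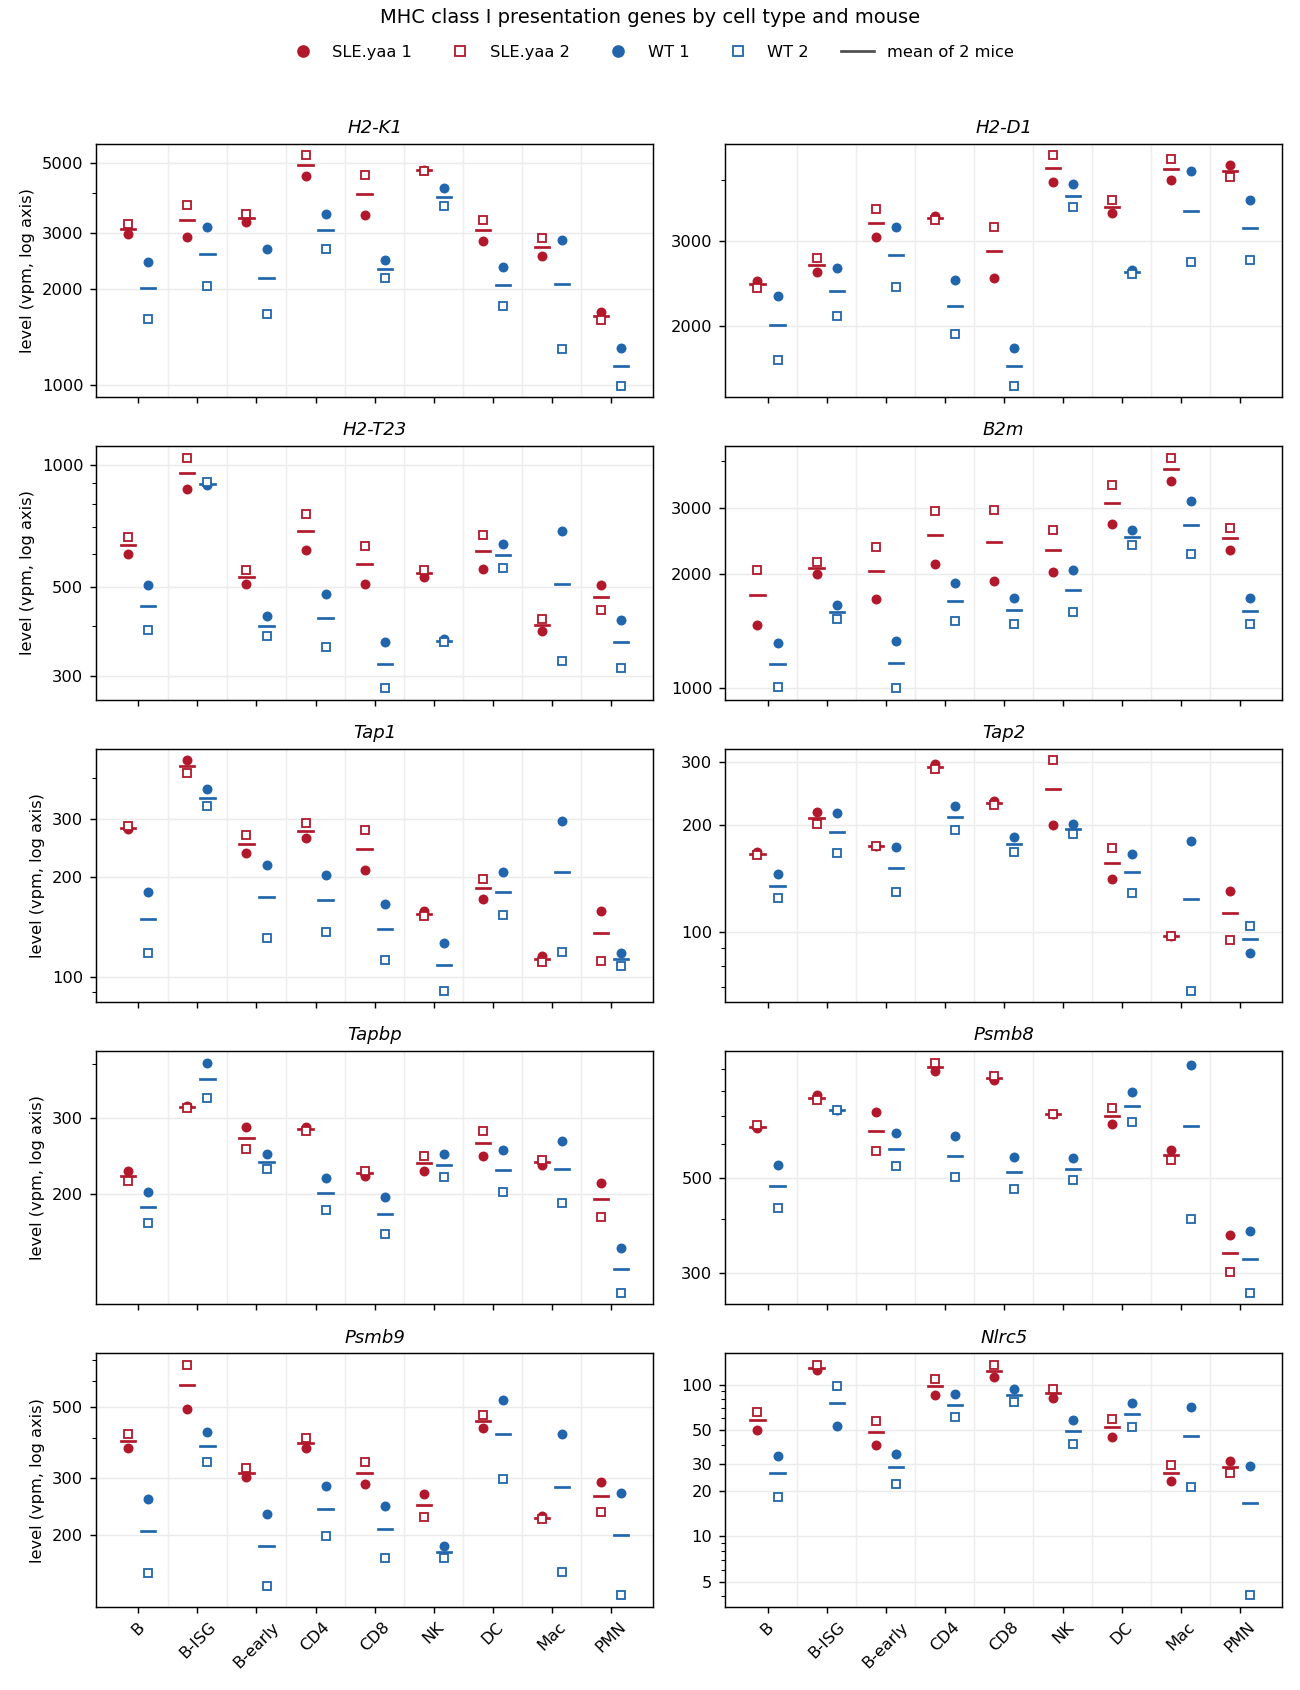
Level of each member in each mouse (vpm with TMM scaling, log axis) for 9 cell types, SLE.yaa mice left of WT mice, with a bar for the mean of 2 mice. WT 1 lies above WT 2 in 86 of 90 panels of gene and type, and in CD4 T cells both SLE.yaa mice lie above both WT mice for 9 of 10 members.

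Over the 36 means of mouse and type, the members went together to unequal degrees. The Pearson r of a member to the mean of the other 9, on log2 values centred per gene, was 0.86 for Psmb8, 0.78 for H2-T23 and 0.78 for Psmb9, but 0.29 for B2m and 0.07 for H2-D1. Tap1 and H2-T23 were the pair most alike (0.89), and Nlrc5 and H2-D1 the pair least alike (−0.17). Among 7661 genes, those nearest to the mean of the 10 members were Psme1 (0.81), Serpina3g (0.80), Psme2 (0.80), H2-T22 (0.77) and Tgtp2 (0.77), and those nearest to Nlrc5 were Tgtp2 (0.84), Gbp4 (0.82) and H2-T22 (0.81). Psme1 and Psme2 encode the PA28 activator of the proteasome, and H2-T22 a nonclassical class I chain. These r values describe means that share libraries and depths, and they carry no p.

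Within cell types, 16 of the 90 pairs of member and type were called higher in SLE.yaa mice and 0 were called lower, and the 16 lay in CD4 T cells, CD8 T cells and B cells. Each of the 10 members was called in at least 1 of these 3 types. The change was above 0 in 81 of 90 pairs, against 44.3% to 55.7% of all genes by type. Both SLE.yaa mice lay above both WT mice in 58 pairs and below them in 2, and the groups overlapped in 30. Over all genes, 15.2% to 32.0% lay above and 18.3% to 31.7% below by type. The 90 pairs share the same 4 mice and are not independent.

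In CD4 T cells 9 of 10 members rose, against 15.9% of all genes tested, with log2 changes of 0.46 to 0.71 and a median over the 10 of 0.64 (−0.01 over all genes). Both SLE.yaa mice were above both WT mice in 9 of 10, against 32.0% of all genes. In CD8 T cells 4 of 10 rose, against 2.50% of all genes, and the groups lay apart in 10 of 10, against 22.1%. In B cells 3 of 10 rose, against 2.98% of all genes, and the groups lay apart in 10 of 10, against 20.6%. Without WT 2 the counts called higher were 1 in CD4 T cells, 0 in CD8 T cells and 0 in B cells, and without WT 1 they were 10, 0 and 5. The shares of all genes called higher in these types were 11.4%, 0.674% and 1.44% without WT 2, and 12.6%, 0.899% and 2.61% without WT 1. The members' changes stayed above 0 in all 10 in each of these 3 types with either mouse left out, with medians of 0.33 to 0.49 without WT 2. Without SLE.yaa 1 the counts called higher were 9, 9 and 7, against 12.9%, 11.1% and 6.90% of all genes at that setting, and without SLE.yaa 2 they were 6, 6 and 5, against 10.2%, 3.68% and 4.96%.

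In the other 6 types 0 members were called by limma. At an unadjusted p under 0.05 stood 6 members in B-early cells (8.63% of all genes), 4 in PMN (14.9%), 3 in NK cells (6.07%), 2 in B-ISG cells (7.78%), 2 in DC (25.8%) and 1 in Mac (21.1%). The share of all genes called higher was 0.347% in B-early cells, 1.26% in PMN, 0.0967% in NK cells, 0.604% in B-ISG cells, 8.36% in DC and 3.92% in Mac. Both SLE.yaa mice were above both WT mice in 8 of 10 members in B-early cells (17.2% of all genes), 7 in NK cells (15.2%), 5 in PMN (24.2%), 5 in B-ISG cells (18.9%), 3 in DC (31.6%) and 1 in Mac (29.3%). The median change of the 10 was 0.47 in B-early cells, 0.39 in NK cells, 0.43 in PMN, 0.25 in B-ISG cells, 0.13 in DC and −0.13 in Mac. With a WT mouse left out, these medians ran from 0.26 to 0.67 in B-early cells, 0.28 to 0.50 in NK cells, 0.19 to 0.64 in PMN, 0.10 to 0.34 in B-ISG cells, −0.09 to 0.31 in DC and −0.73 to 0.47 in Mac, each lowest without WT 2 and highest without WT 1. Without SLE.yaa 2 the DC median was 0.03, and without SLE.yaa 1 it was 0.24, with 1 member called. Without WT 1, PMN had 3 members called higher (5.54% of all genes) and DC 2 (16.7%). In DC without C1q cells the median was 0.38, with 10 of 10 changes above 0 and 0 called.

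**Figure D2:**
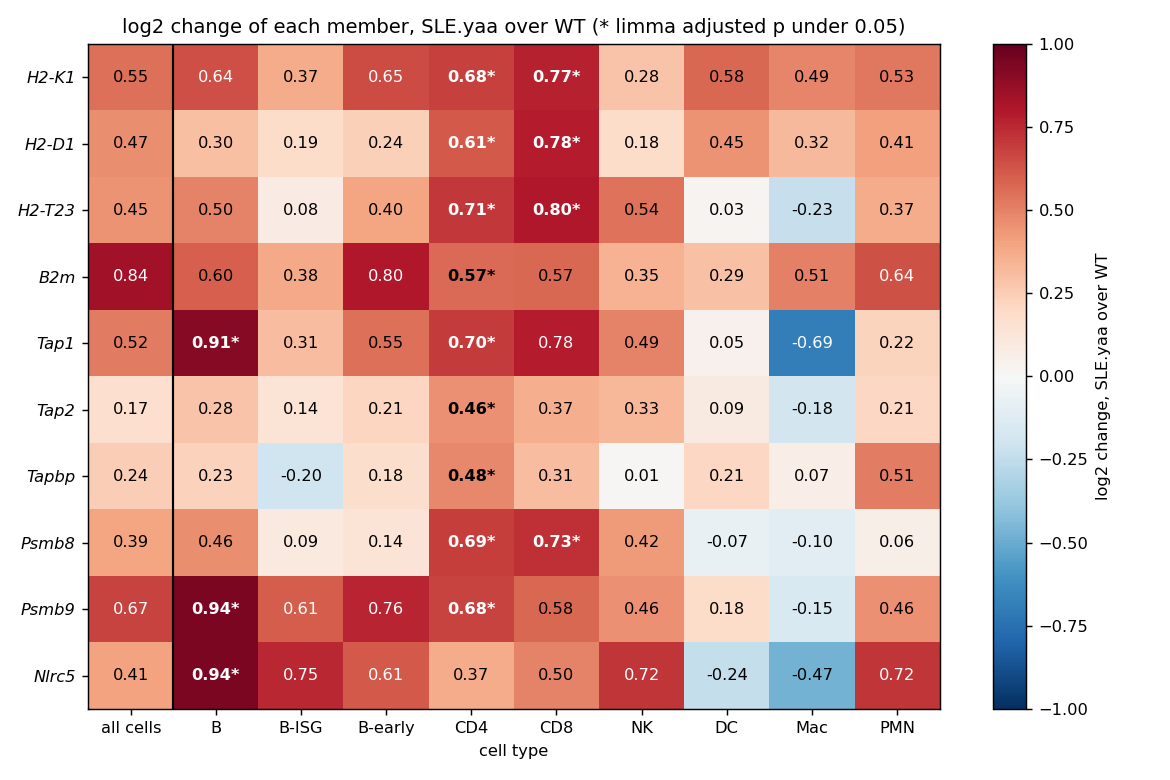
Log2 change of each member (rows), SLE.yaa over WT, in all cells and in 9 cell types (columns), with an asterisk where the limma adjusted p was under 0.05. The 16 called pairs lie in the columns of B, CD4 and CD8, and 6 of the 10 members have a change below 0 in Mac.

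Over all cells together 0 of 10 members were called, against 6.00% of all genes higher, with 7 at an unadjusted p under 0.05 (25.7% of all genes). All 10 had a change above 0, between 0.17 (Tap2) and 0.84 (B2m), and both SLE.yaa mice were above both WT mice in 9 of 10, against 28.9% of all genes. B2m, the light chain, had 2173 and 2969 vpm in SLE.yaa mice against 1633 and 1229 vpm in WT mice (log2 change 0.84, limma adjusted p = 0.0627). The mix of types differs here: Mac made up 11.1% and 24.2% of cells in SLE.yaa mice against 6.82% and 2.97% in WT mice, and plasma cells 6.85% and 4.68% against 0.218% and 0.193%. With the types weighted at their WT shares, B2m had a change of 0.56 (adjusted p = 0.121), and Tap1, Psmb9 and Nlrc5 were called with changes of 0.75, 0.77 and 0.64.

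The heavy chains rose in both T cell types. H2-K1 had 4529 and 5263 vpm in CD4 T cells of SLE.yaa mice against 3453 and 2681 vpm in those of WT mice, a log2 change of 0.68 (SE 0.15, limma adjusted p = 0.0027). In CD8 T cells it had 3434 and 4561 vpm in SLE.yaa mice against 2477 and 2163 vpm in WT mice (change 0.77, adjusted p = 0.0222). The groups did not overlap in either type, and SLE.yaa 2 was the highest mouse in both. H2-D1 had 3383 and 3312 vpm in CD4 T cells of SLE.yaa mice against 2483 and 1922 vpm in those of WT mice (change 0.61, adjusted p = 0.0038), and its change in CD8 T cells was 0.78 (adjusted p = 0.0204). In B cells H2-D1 had 2479.9 and 2397 vpm in SLE.yaa mice against 2307 and 1701 vpm in WT mice, with the groups apart and an adjusted p of 0.544. H2-K1 in B cells had a change of 0.64 (adjusted p = 0.135).

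H2-T23, the Qa-1 chain, had 615 and 755 vpm in CD4 T cells of SLE.yaa mice against 480.5 and 356 vpm in those of WT mice (change 0.71, adjusted p = 0.0022). It also rose in CD8 T cells, with 507 and 629 vpm in SLE.yaa mice against 364 and 281 vpm in WT mice (change 0.80, adjusted p = 0.0284). In NK cells, which carry the receptor for Qa-1, it had 529 and 550.0 vpm in SLE.yaa mice against 370.4 and 365 vpm in WT mice. These groups lay apart in NK cells with a change of 0.54, which was not called (adjusted p = 0.665).

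B2m rose in CD4 T cells, where it had 2133 and 2940.0 vpm in SLE.yaa mice against 1897 and 1502 vpm in WT mice (change 0.57, adjusted p = 0.015). In B-early cells it had 1723 and 2361 vpm in SLE.yaa mice against 1327 and 998 vpm in WT mice, and in PMN 2325 and 2654 vpm against 1727 and 1474 vpm. The groups lay apart in both of these types, with changes of 0.80 and 0.64 and adjusted p-values of 0.149 and 0.06 that missed the threshold. SLE.yaa 2 was above SLE.yaa 1 for B2m in each of the 9 types. Plasma cells (340 and 287 in SLE.yaa mice, 12 and 11 in WT mice) were under the minimum of 20 cells and were not tested, and B2m in them had 5309 and 6506 vpm in SLE.yaa mice against 2833 and 3851 vpm in WT mice.

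Of the immunoproteasome subunits, Psmb8 rose in both T cell types and Psmb9 in B cells and CD4 T cells. Psmb8 had 892 and 934 vpm in CD4 T cells of SLE.yaa mice against 627 and 503 vpm in those of WT mice (change 0.69, SE 0.13, adjusted p = 0.00085). With each of the 4 mice left out in turn, the change of Psmb8 in CD4 T cells was 0.54 to 0.85. In CD8 T cells Psmb8 had 848 and 870.4 vpm in SLE.yaa mice against 560 and 472 vpm in WT mice (change 0.73, adjusted p = 0.0186). Psmb9 rose in B cells, with 372 and 411 vpm in SLE.yaa mice against 259 and 153 vpm in WT mice (change 0.94, adjusted p = 0.0188), and in CD4 T cells (0.68, adjusted p = 0.0029). In B-early cells Psmb9 had 303 and 322 vpm in SLE.yaa mice against 233 and 139 vpm in WT mice, with an adjusted p of 0.228.

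Of the transporter and loading genes, Tap1 rose in CD4 T cells and B cells. It had 280.2 and 286 vpm in B cells of SLE.yaa mice against 181 and 118 vpm in those of WT mice, a log2 change of 0.91 (SE 0.16, adjusted p = 0.0093). Its level in CD4 T cells was 263 and 292 vpm in SLE.yaa mice against 204 and 137 vpm in WT mice (change 0.70, adjusted p = 0.0034). Tap2 and Tapbp rose in CD4 T cells, by 0.46 (adjusted p = 0.0106) and 0.48 (adjusted p = 0.0086), and were called in none of the other 8 types. The differences of their changes from those in B cells were not called. In B cells Tap2 had 168 and 164 vpm in SLE.yaa mice against 145 and 125 vpm in WT mice, and the groups lay apart (adjusted p = 0.249).

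Nlrc5 rose in B cells, where it had 49.9 and 66.1 vpm in SLE.yaa mice against 34.0 and 18.1 vpm in WT mice (change 0.94, SE 0.19, adjusted p = 0.0156). Its level in CD4 T cells was 85.9 and 109 vpm in SLE.yaa mice against 86.7 and 60.8 vpm in WT mice. The groups overlapped there, since WT 1 was above SLE.yaa 1, and Nlrc5 was the 1 member not called in that type (0.37, adjusted p = 0.105). In NK cells it had 81.1 and 93.6 vpm in SLE.yaa mice against 58.7 and 40.8 vpm in WT mice, and in B-ISG cells 124 and 134 vpm against 52.9 and 98.0 vpm. These groups lay apart in both types, with adjusted p-values of 0.793 and 0.385.

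Other measures moved with the group in the same cells. Median UMI counts of B cells were 4778 and 4518 in SLE.yaa mice against 3218 and 3389 in WT mice, and with only cells of 2000 to 6000 UMIs 16 of the 16 calls were kept. That window gave 23 calls in all, with 4 in B cells, 9 in CD4 T cells, 6 in CD8 T cells and 4 in PMN. The shares of all genes called higher in these types were 2.26%, 15.3%, 5.86% and 2.72%. In PMN the median change of the members was 1.195, with 47 and 27 PMN left in WT mice. In DC the window left 3 of 10 changes above 0, with a median of −0.05, and 36 and 24 DC in WT mice. The 5 plasma cell markers, none of them at 0, summed to 2349 and 1317 vpm in B cells of SLE.yaa mice against 499 and 503 vpm in those of WT mice, and to 292 and 181 vpm against 63.3 and 60.9 vpm in CD4 T cells. The 5 NK markers summed to 276 and 377 vpm in CD4 T cells of SLE.yaa mice against 98.5 and 60.6 vpm in those of WT mice, with Ncr1 at 0, and to 2065 and 3068 vpm against 1284 and 1193 vpm in CD8 T cells. Of the NK markers, 2 could be tested in CD4 T cells, where 1 rose (2.75) and 1 fell (−1.25). In CD8 T cells 4 could be tested, with a change above 0 in 2 and 1 called higher. The part of the plasma cell and NK markers in the members' changes was not tested. A further list held 5 interferon-signature genes, Ifit1, Ifit3, Isg15, Irf7 and Oasl2. They summed in CD4 T cells to 296 and 368 vpm in SLE.yaa mice against 236 and 319.5 vpm in WT mice, and Oasl2 was called (0.49, adjusted p = 0.0196) while the other 4 were not. In B-ISG cells 3 of the 5 fell (Ifit1 by −2.05, Ifit3 by −1.68 and Irf7 by −1.09), and in PMN 4 of the 5 rose, by 1.52 to 1.78.

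In Mac the members did not share 1 direction. B2m had 3526 and 4073 vpm in Mac of SLE.yaa mice against 3139 and 2261 vpm in those of WT mice, with the groups apart (change 0.51, adjusted p = 0.104). Tap1 had 115.5 and 111 vpm in SLE.yaa mice against 297 and 119 vpm in WT mice, with both SLE.yaa mice below both WT mice (change −0.69, adjusted p = 0.246). WT 1 alone stood far above the other 3 mice for Tap1, and likewise for Nlrc5, which had 23.015 and 29.3 vpm in SLE.yaa mice against 71.0 and 21.0 vpm in WT mice. Psmb9 had 229 and 224 vpm in SLE.yaa mice against 411 and 154 vpm in WT mice, and H2-T23 389 and 415 vpm against 686 and 327 vpm. For these 2 the SLE.yaa mice lay between the WT mice. The direction in Mac rested on the WT mouse used: without WT 2, 6 members were called lower (H2-T23, Tap1, Tap2, Psmb8, Psmb9 and Nlrc5), against 5.64% of all genes, and without WT 1, 6 were called higher (H2-K1, H2-D1, B2m, Tap2, Psmb8 and Psmb9), against 13.6% of all genes.

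A test of the change in a type minus the change in B cells of the same mice gave 6 calls among 80 pairs, 1 higher and 5 lower. All 8 comparisons share the B cell values. In Mac 3 members were called, against 5.56% of all genes: Tap1 (−1.60, SE 0.21, adjusted p = 0.0022), Nlrc5 (−1.42, SE 0.22, adjusted p = 0.0047) and Psmb9 (−1.09, SE 0.21, adjusted p = 0.0133). On the log2 scale, the level of Tap1 in Mac minus that in B cells was −1.21 and −1.29 in SLE.yaa mice against 0.68 and 0.01 in WT mice. For Nlrc5 it was −0.86 and −0.95 in SLE.yaa mice against 0.88 and 0.14 in WT mice, and for Psmb9 −0.68 and −0.85 against 0.65 and 0.01. The groups lay apart for all 3. With each of the 4 mice left out in turn, the differences were −1.93 to −1.27 for Tap1, −1.78 to −1.06 for Nlrc5 and −1.41 to −0.78 for Psmb9. Only these sizes are given, since such a fit has 1 mouse in a group and lacks the spread within it. With no filter on low values 0 of the 3 were called (adjusted p = 0.113 for Tap1, 0.129 for Nlrc5 and 0.154 for Psmb9), and Psmb9 was not called with a pseudocount of 1 (0.0811). The differences in Mac were −0.09 for B2m, −0.15 for H2-K1 and 0.02 for H2-D1, and these were not called. All 3 changed sign with a mouse left out: H2-K1 (0.11 without WT 1), H2-D1 (−0.07 without WT 2 and −0.08 without SLE.yaa 2) and B2m (0.04 without SLE.yaa 2). The H2-D1 difference was also below 0 with sum scaling (−0.11) and with no scaling (−0.35).

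Mac differed in make-up between the groups. Ly6c2, a marker of inflammatory monocytes, had a value in 18.0% and 15.8% of Mac in SLE.yaa mice against 45.1% and 37.3% in WT mice. In Mac without Ly6c2 the differences from B cells were −1.78 for Tap1 (adjusted p = 0.0326), −1.68 for Nlrc5 (adjusted p = 0.0487) and −1.25 for Psmb9 (adjusted p = 0.105). In Mac with Ly6c2 they were −1.40, −0.89 and −1.13, with 0 of the 3 called. This split was chosen after the data were seen. Isg15, one of the interferon-signature genes, fell in Mac to 65.0 and 44.0 vpm in SLE.yaa mice, against 106 and 116 vpm in WT mice (change −0.93, adjusted p = 0.0162).

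**Figure D3:**
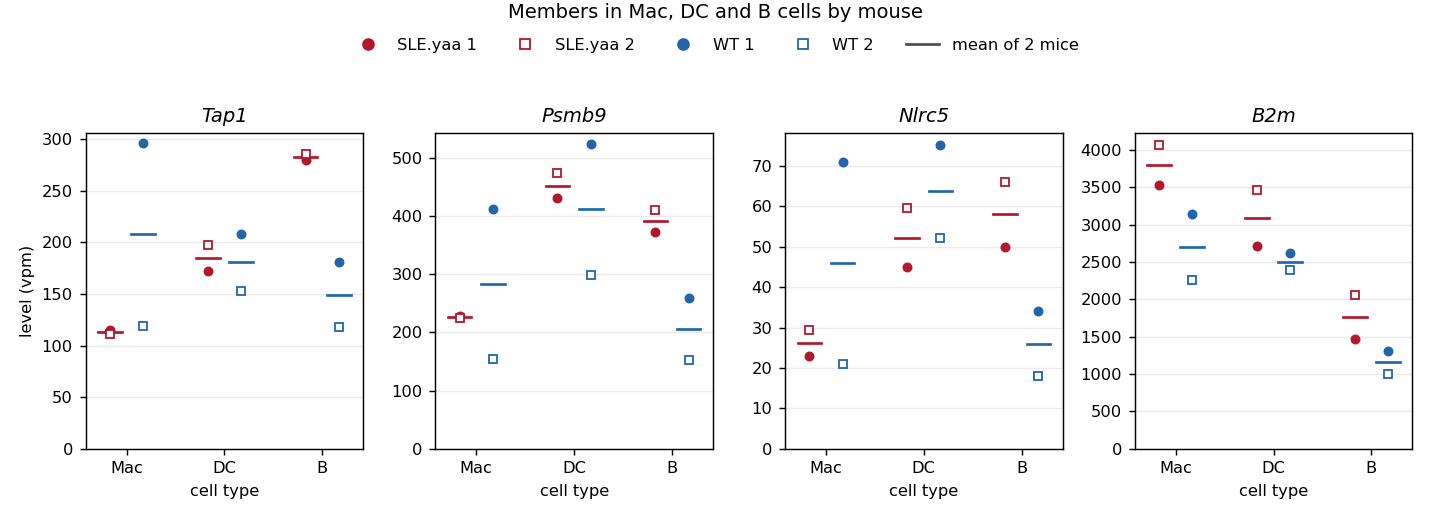
Level of Tap1, Psmb9, Nlrc5 and B2m in each mouse (vpm with TMM scaling) in Mac, DC and B cells, SLE.yaa mice left of WT mice, with a bar for the mean of 2 mice. Tap1, Psmb9 and Nlrc5 are higher in SLE.yaa mice in B cells and not in Mac, where WT 1 stands far above WT 2, while B2m lies higher in SLE.yaa mice in all 3 types.

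In DC 1 member was called against B cells (5.60% of all genes). The level of Nlrc5 in DC minus that in B cells was −0.13 and −0.13 in SLE.yaa mice against 0.95 and 1.15 in WT mice, a difference of −1.18 (SE 0.21, adjusted p = 0.0161). In DC itself Nlrc5 had 44.9 and 59.7 vpm in SLE.yaa mice against 75.3 and 52.2 vpm in WT mice, and the groups overlapped. Without cells that had a C1q value the difference from B cells was −0.60 and was not called (adjusted p = 0.691), and without SLE.yaa 1 it was −1.18 and was not called (adjusted p = 0.055). Tap1 and Psmb9 in DC had differences of −0.86 and −0.76, with adjusted p-values of 0.063 and 0.069. H2-K1 had 2829 and 3294 vpm in DC of SLE.yaa mice against 2359 and 1769 vpm in those of WT mice, and H2-D1 3419 and 3642 vpm against 2603 and 2563 vpm. The groups lay apart for both heavy chains in DC, with changes of 0.58 and 0.45 and adjusted p-values of 0.102 and 0.133.

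In CD4 T cells 2 members were called against B cells, where 26.7% of all genes were. H2-D1 changed more in CD4 T cells than in B cells by 0.32 (SE 0.10, adjusted p = 0.0421), with 0.45 and 0.46 in SLE.yaa mice against 0.11 and 0.18 in WT mice for the log2 level in CD4 T cells minus that in B cells. Nlrc5 changed less, by −0.57 (SE 0.11, adjusted p = 0.0035), with 0.68 and 0.64 in SLE.yaa mice against 1.13 and 1.34 in WT mice. The H2-D1 difference was not called with any of the 4 mice left out (0.28 to 0.35), and the Nlrc5 difference was not called without SLE.yaa 2 (−0.57, adjusted p = 0.0529). In the other 5 types 0 members were called against B cells by limma, where the share of all genes called was 2.22% in CD8 T cells, 0.00% in B-ISG cells, 0.226% in PMN, 0.0134% in B-early cells and 0.0273% in NK cells. At an unadjusted p under 0.05 stood 3 of 10 members in CD8 T cells (16.7% of all genes), 1 in B-ISG cells (6.13%), 1 in PMN (12.3%), 0 in B-early cells (8.95%) and 0 in NK cells (7.18%).

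The 2 WT mice stood apart in the members. WT 1 was above WT 2 in 86 of 90 pairs of member and type, while over all genes tested WT 1 was above in 47.0% to 53.8% of genes in each type. The median log2 ratio of WT 1 to WT 2 over the members was 0.41 in B cells, 0.37 in CD4 T cells, 0.26 in CD8 T cells and 1.16 in Mac, against −0.04 to 0.03 over all genes in the 9 types. In PMN the Nlrc5 level was 31.2 and 26.0 vpm in SLE.yaa mice against 29.2 and 4.07 vpm in WT mice. The 14 housekeeping proteasome genes also ran higher in WT 1 in 14 of 14 in B cells, CD4 T cells and Mac, with medians of 0.13, 0.15 and 0.20. Of the interferon-signature list, the genes higher in WT 1 were 4 of 4 tested in CD8 T cells (median 0.52), 4 of 5 in Mac (0.29) and 4 of 5 in PMN (0.57), but 1 of 5 in CD4 T cells (−0.21), 0 of 5 in B-ISG cells (−0.70) and 0 of 4 in NK cells (−0.31). Among SLE.yaa mice, SLE.yaa 2 was above SLE.yaa 1 in 61 of 90 pairs.

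**Figure D4:**
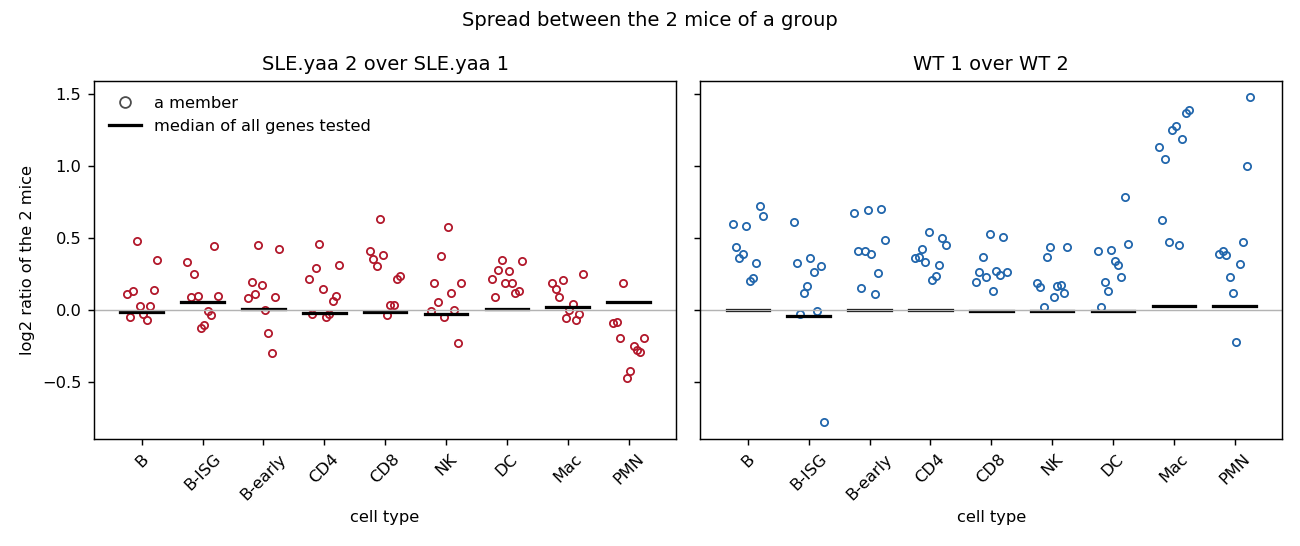
Log2 ratio of the 2 mice of a group for each member (circles, on vpm plus 10), SLE.yaa 2 over SLE.yaa 1 on the left and WT 1 over WT 2 on the right, with a bar for the median of all genes tested in the type. In WT mice the circles lie above 0 in 86 of 90 cases, with the highest median in Mac (1.16). The highest single circle is Nlrc5 in PMN (1.48), where WT 2 had 4.07 vpm.

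Other genes of the class I pathway were called in B cells and CD4 T cells, and not in CD8 T cells. Of 28 listed, 19 could be tested in B cells, where 7 rose and 1 fell (2.98% of all genes rose and 1.12% fell). H2-Q7, a Qa-2 chain, had 520.1 and 705 vpm in B cells of SLE.yaa mice against 336 and 166 vpm in those of WT mice (change 1.32, adjusted p = 0.0148). H2-T22 (0.85), H2-Q6 (0.81), H2-Q4 (0.74), Psmb10 (0.58), Calr (0.54) and Pdia3 (0.49) rose as well. Psmb10 encodes the remaining catalytic subunit of the immunoproteasome, and Calr and Pdia3 encode chaperones of the loading complex. Cd1d1, a CD1 chain that presents lipids, fell to 31.2 and 27.4 vpm in SLE.yaa mice, against 53.7 and 59.6 vpm in WT mice (−0.76, adjusted p = 0.0015). H2-Q6 and H2-Q7 are near-identical copies, and no source used here says how reads were shared between them.

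In CD4 T cells 11 of 20 rose and 2 fell (15.9% of all genes rose and 12.3% fell). H2-Q6 had a change of 1.14, Psme2 of 0.84, Tapbpl, a tapasin-related peptide editor, of 0.85, and the endoplasmic reticulum chaperone Hspa5 of 0.84. H2-T24 (−0.54) and Cd1d1 (−0.42) fell. H2-Q7 also rose in B-ISG cells (1.37), B-early cells (1.29) and PMN (2.12), where it had 241 and 253 vpm in SLE.yaa mice against 80.2 and 28.5 vpm in WT mice. In DC 3 of 21 rose (Canx, Pdia3 and Hspa5), against 8.36% of all genes, and 2 fell, against 3.77%. One of these, H2-M2, was listed at 0 in both SLE.yaa mice against 127 and 233 vpm in WT mice. The other was Cd1d1 (−1.02). These DC changes were not tested without C1q cells, whose share differed between the groups. Without them, at 51 to 73 DC a mouse, calls over all genes went from 738 higher and 333 lower to 19 and 12. In CD8 T cells 0 of 21 were called, with 10 at an unadjusted p under 0.05 (16% of all genes). In Mac 0 of 18 were called, with 2 at an unadjusted p under 0.05 (21.1%).

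Of 14 genes of the constitutive proteasome, 0 were called in B cells and 0 in CD8 T cells, with medians of 0.13 and 0.19. In B cells 1 stood at an unadjusted p under 0.05 (13.5% of all genes), and in CD8 T cells 0 did (16%). Of the 14, 6 rose in CD4 T cells, against 15.9% of all genes. Among them were Psma4 (0.57) and Psma7 (0.45), which encode alpha subunits of the core. Another was Psmb5 (0.40), the catalytic subunit that Psmb8 replaces in immunoproteasomes. That the change of these 14 genes differs from that of the members was not tested.

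Calls among the 19 regulators listed are named here only in part. In B cells 3 of 19 rose and 1 fell, against 2.98% and 1.12% of all genes. In CD4 T cells 4 rose and 1 fell (15.9% and 12.3%), and in DC 2 rose and 2 fell (8.36% and 3.77%). In CD8 T cells 1 rose (2.50%). DC changes below were not tested without C1q cells, whose share differed between the groups. Irf1 (0.83) and Irf8 (0.78), interferon regulatory factors, rose in B cells. Irf2 rose in CD4 (0.67) and CD8 (0.76) T cells. Irf7 rose in DC (1.60) and PMN (1.52) and fell in B-ISG cells to 218 and 205 vpm in SLE.yaa mice, against 346 and 611 vpm in WT mice (−1.09, adjusted p = 0.0088; 0.276% of all genes fell). Ciita, the relative of Nlrc5 that drives MHC class II genes, fell in Mac to 16.7 and 15.4 vpm in SLE.yaa mice, against 88.9 and 39.1 vpm in WT mice (−1.42, adjusted p = 0.019; 1.77% of all genes fell), and fell in DC (−1.73). Jak2 (0.60) and Nfkb1 (0.70) rose in CD4 T cells and Ifngr2, a chain of the interferon-gamma receptor, fell to 10.4 and 4.84 vpm in SLE.yaa mice, against 36.3 and 37.8 vpm in WT mice (−1.44, adjusted p = 1.2e-05).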

How the data were processed

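Spleen cells of 4 mice, 2 SLE.yaa and 2 WT, were measured by droplet single-cell RNA sequencing, and each mouse is 1 replicate. Cell Ranger 5.0.0, Seurat 4.0.0 and the builds GRCm38 and mm10 are named in the submitters' processing notes. The deposited expression table holds natural log values, ln(1 + value), where value was a whole number in every entry (within 1.64e-11), adjusted by the authors for the depth of each cell. These are not raw counts: the values of a cell summed to 2663 to 6382, against 1002 to 26847 deposited UMI counts per cell, so the adjustment also narrows differences in depth. Cell types were the authors' annotation in the deposited cell table, whose UMI and gene counts and percent of mitochondrial UMIs (at most 5) were also read. The highest gene count was 2999 per cell. Age is the authors' deposited value. No source used here states how doublets were treated, and none were removed. Rows with no gene name (15, holding 0.0440% of the summed values) were left out.

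Values were back-transformed, averaged over the cells of each mouse and type, and scaled to a sum of 1000000 (vpm). Types with at least 20 cells in each mouse were tested: TMM factors (edgeR 4.0.16), then limma 3.58.1 with a trend on log2(vpm + 10), over genes that reached 10 vpm in 2 or more mice, two-sided, with Benjamini-Hochberg adjustment over all genes tested in a comparison. A fold change on log2(vpm + 10) understates the change of low genes. Differences between types were fitted on the within-mouse log2 difference from B cells. R 4.3.3, Python 3.11.15, numpy 2.4.6 and pandas 2.3.3 were used, and the fits were tested on simulated data. The alternatives were other pseudocounts (1 and 30), no filter, other scalings, robust limma, adjustment over all types at once, the mean of the natural log values, a UMI window, each mouse left out, and other cell mixes for all cells. The 10 members and the gene lists were chosen with earlier results of these data known, and genes outside the members are named from those lists where they passed the test, or by likeness. A gene of the regulator list is not reported here.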

Additional observations from a re-analysis of the deposited data

Results flagged for a closer look

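For 6 pairs of member and cell type, the change between SLE.yaa and WT mice differed from the change in B cells, by a limma test of the difference itself. In Mac these were Tap1 (−1.60, from a change of −0.69 in Mac and 0.91 in B cells), Nlrc5 (−1.42, from −0.47 and 0.94) and Psmb9 (−1.09, from −0.15 and 0.94). Nlrc5 also differed in DC (−1.18, from −0.24 and 0.94) and in CD4 T cells (−0.57, from 0.37 and 0.94). H2-D1 differed in CD4 T cells (0.32, from 0.61 and 0.30). Against B cells, 26.7% of all genes were called in CD4 T cells, 5.56% in Mac and 5.60% in DC. The H2-D1 difference was not called with a pseudocount of 1 (limma adjusted p = 0.0904) or with no scaling (0.0808). The 6 pairs share the B cell values of the same mice. Beside the DC value stands the share of DC with a C1q value, 80.4% and 75.5% in SLE.yaa mice against 5.19% and 12.2% in WT mice, and without those cells the DC difference was −0.60 (adjusted p = 0.691). Beside the Mac values stands the share of Mac with a Ly6c2 value, 18.0% and 15.8% in SLE.yaa mice against 45.1% and 37.3% in WT mice.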

How the results depend on the processing

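With 2 mice a group, the calls depend most on which mice enter. A fit with a mouse left out has 1 mouse in that group, so the spread within that group does not enter its test. Of the 16 members called higher by type, 16 were kept with pseudocount 1, pseudocount 30, sum scaling, no scaling, the UMI window and the natural log mean, 15 with adjustment over all types, 14 with robust limma and 8 with no filter. Without SLE.yaa 1 16 were kept, without SLE.yaa 2 13, without WT 1 12 and without WT 2 1 (Psmb8 in CD4 T cells), and their changes stayed above 0 (0.34 to 1.31). The count called higher by type was 36 with no scaling, 32 with the natural log mean, 8 with no filter and 1 to 27 with a mouse left out, and the count called lower 0 to 6. In all cells it was 1 with sum scaling, 9 with no scaling, 3 at WT shares, 5 without PC, Mac, DC and PMN, and 0 to 5 with a mouse left out. The natural log mean was likewise fitted with no scaling between mice. No scaling moved the median of all genes by up to 0.25 (B-ISG cells). It also raised the share of all genes called higher in all cells from 6.00% to 17.2%. That share was 6.71% with sum scaling, 4.93% at WT shares and 4.72% without PC, Mac, DC and PMN. In CD4 T cells the share was 15.9% as reported, 24.5% with no scaling and 21.9% with the natural log mean. In B cells it was 2.98% as reported and 10.8% with the natural log mean. In Mac it fell, from 3.92% to 3.58% with no scaling and 2.68% with the natural log mean. Differences from B cells called higher were 0 with pseudocount 1, 3 with pseudocount 30, 3 with sum scaling, 0 with no scaling and 0 to 1 with a mouse left out. Those called lower were 3 with pseudocount 1, 9 with pseudocount 30, 1 with no filter, 9 with no scaling, 2 where Mac cells with Ly6c2 stood for Mac (those 2 in CD4 T cells and DC, 0 in Mac) and 4 to 8 with a mouse left out. Calls over all genes in Mac went to 1648 without WT 1 and 1031 without WT 2, against 449 with all mice.

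Of 69 single results listed as named, 8 changed sign under some alternative. Nlrc5 in DC was 0.34 without C1q cells. In Mac with a mouse left out, the changes ran, without WT 2 at the low end and without WT 1 at the high end, over −0.76 to 0.28 for H2-T23, −0.82 to 0.45 for Tap2, −0.69 to 0.48 for Psmb8, −0.83 to 0.52 for Psmb9, −1.16 to 0.21 for Nlrc5, −0.076 to 1.05 for H2-K1 and −0.16 to 0.29 for Tapbp. In Mac with Ly6c2, Tap2 was 0.22, Tapbp −0.016 and Nlrc5 0.056. Tapbp in Mac was −0.11 with sum scaling, −0.018 with no scaling and −0.038 with the natural log mean. Except where shown, the cause was not tested. Of 111 further results, 46 changed sign under some alternative. The 46 include the differences from B cells of B2m, H2-K1 and H2-D1 in Mac, which the text above also names. No paired analysis was possible because the replicate numbers only name the mice. Another annotation column was planned as an alternative and not run, since 1 such column was used. NK, B-early and B-ISG cells had 46 to 262 cells a mouse, which limits their precision.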

Other observations

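A list of 9 class I receptors and related immune receptors also held calls. Lilrb4a, an inhibitory receptor of the immunoglobulin family, rose in CD4 T cells to 46.9 and 97.6 vpm in SLE.yaa mice, against 7.34 and 2.52 vpm in WT mice (limma log2 change 2.41, adjusted p = 2.4e-06). It rose in B cells (0.87), CD8 T cells (0.89) and DC (1.38) as well. The DC changes of this list were not tested without C1q cells, whose share differed between the groups. Klra2, a Ly49 family receptor, rose in DC (3.14). In Mac Klra2 fell to 88.0 and 94.9 vpm in SLE.yaa mice, against 321.9 and 155 vpm in WT mice (−1.21, limma adjusted p = 0.0295). Klrd1, the CD94 chain of the Qa-1 receptor, fell in CD4 T cells (−1.25) and DC (−1.99), and 0 of the 5 receptor genes tested in NK cells were called, with 1 at an unadjusted p under 0.05.

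Plasma cells numbered 340 and 287 in the SLE.yaa mice and 12 and 11 in the WT mice, under the minimum of 20 cells, and were not tested. In them Psmb8 stood at 840 and 942 vpm in SLE.yaa mice against 420 and 217 vpm in WT mice. Both SLE.yaa mice lay above both WT mice in 8 of 10 members. The share of all genes that did so was not computed in plasma cells, so this count has no reference. Tapbp ran the other way, with 247 and 257 vpm in SLE.yaa mice against 367 and 415 vpm in WT mice.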
